A study of Mus musculus with 2 samples.

Results

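The cells described here are those that the submitters named CD4+ T cells in their deposited cell table, 540 of the 10050 cells that carry a cell type name. Of these, 303 of 5385 named cells came from APOE4 mice and 237 of 4665 from APOE2 mice. The members were taken by that name alone, which covers exactly 1 of the submitters' clusters; since expression made the cluster, the markers below describe it and test nothing. Mice of both groups carried a human APOE knock-in of the APOE4 or the APOE2 allele. Their sex, age and strain background were not given in the sources used here. Mice were injected under the skin of the flank with 100000 cells of YUMM1.7, a mouse melanoma line, mixed with Matrigel. Tumours were taken on day 19, 10000 live CD45+ leukocytes were sorted from each of 6 mice per genotype, and the 60000 cells of a genotype were pooled before droplet capture with 3′ chemistry. There is therefore 1 library per genotype, the differences below have no replicate check, and no p-value can be given: every interval covers counting error only, at the 95% level, and mouse, library and genotype cannot be told apart.

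T cells read antigen through the T cell receptor and its CD3 chains, and CD4 is the co-receptor of those that see antigen on MHC class II. Regulatory T cells, governed by the transcription factor Foxp3, restrain immune responses and accumulate in many tumours, where they carry Il2ra, Ctla4 and TNF-family receptors such as Tnfrsf4 and Tnfrsf9. Conventional helper cells lack Foxp3 and can show Cd40lg, the ligand with which they license antigen-presenting cells. T cells that make interleukin 17 include helper cells with CD4 and gamma delta T cells of skin and barrier tissue, which mostly lack CD4 and carry Cd163l1 and Blk.

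The depth of the members was alike in both libraries. Their unique molecular identifiers (UMIs, 1 for each RNA molecule captured) summed to 1203829 in APOE4 and 898582 in APOE2, with a median of 3405 and 3389 UMIs and of 1618 and 1619 genes per cell. Median mitochondrial shares were 3.40% in APOE4 and 3.66% in APOE2. The whole libraries held 37349222 UMIs in 5689 barcodes for APOE4 and 41207514 UMIs in 5063 barcodes for APOE2. The matrices share 9 barcodes, none of them a member in both libraries, and 2 members carry a barcode that is also in the other matrix. T cell receptor and immunoglobulin segment genes, Trdc among them, are not among the 27998 genes of the matrices given here and were not analysed here, so alpha beta and gamma delta cells were not told apart by their receptors.

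The cells under the name carried T cell genes, and Cd4 was detected in about as many of them in both libraries. A UMI of Cd3g was present in 93.4% [90.0, 95.9] of APOE4 cells and 91.6% [87.3, 94.8] of APOE2 cells, and one of Cd4 in 49.5% [43.7, 55.3] and 46.4% [39.9, 53.0] (exact binomial intervals). Cd4 is sparsely captured, since it was also seen in only 56.4% of APOE4 and 52.9% of APOE2 cells with Foxp3, so a cell without a Cd4 UMI is not shown to lack the gene. Of the regulatory genes, Ikzf2 was in 72.6% of APOE4 and 85.7% of APOE2 cells and Tnfrsf4 in 67.0% and 81.4%. Izumo1r, the folate receptor 4 of regulatory cells, had UMIs in 103 of the 303 APOE4 and 85 of the 237 APOE2 cells. As shares these were nearly level, unlike those of Ikzf2 and Tnfrsf4. The 5 genes set to check the name lie apart: Foxp3 is on chromosome X (mm10, chrX:7573644-7595245), Il17a on chromosome 1 (chr1:20730905-20734496), Cd4 on chromosome 6 (chr6:124864692-124888221), Tnfrsf4 on chromosome 4 (chr4:156013843-156016612) and Izumo1r on chromosome 9 (chr9:14885814-14903949).

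Fewer APOE4 than APOE2 cells held a Foxp3 UMI: 118 of 303, or 38.9% [33.4, 44.7], against 140 of 237, or 59.1% [52.5, 65.4]. The ratio of the shares, APOE4 over APOE2, was 0.659 [0.553, 0.786]. Cells named NK held a Foxp3 UMI in 0.134% of APOE4 and 0% of APOE2 cells, at median depths of 3857 and 4683 UMIs, so the shares among the members lie far above what free RNA gave in cells that should lack the gene. With every cell thinned to 1500 UMIs, which leaves out 11 APOE4 and 9 APOE2 cells, 73 of 292 APOE4 cells and 91 of 228 APOE2 cells held Foxp3, a ratio of 0.626 [0.486, 0.808]. Il2ra, the high-affinity interleukin 2 receptor chain, followed with 51.8% of APOE4 and 71.3% of APOE2 cells, a ratio of 0.727 [0.635, 0.832].

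Il17a, the cytokine itself, was found in 34 APOE4 cells, 11.2% [7.90, 15.3], and 18 APOE2 cells, 7.59% [4.56, 11.7]. The ratio of 1.48 [0.856, 2.55] has an interval that spans 1, and it was 2.54 [1.04, 6.20] among cells with under 5% mitochondrial UMIs. Cd163l1, a scavenger receptor of gamma delta T cells, separated the libraries more: 57 APOE4 cells, 18.8%, against 17 APOE2 cells, 7.17%, a ratio of 2.62 [1.57, 4.39]. The kinase gene Blk was in 15.8% of APOE4 and 6.75% of APOE2 cells. NK-named cells held an Il17a UMI in 0% of either library and a Cd163l1 UMI in 0.538% of APOE4 and 0.810% of APOE2 cells.

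**Figure D1:**
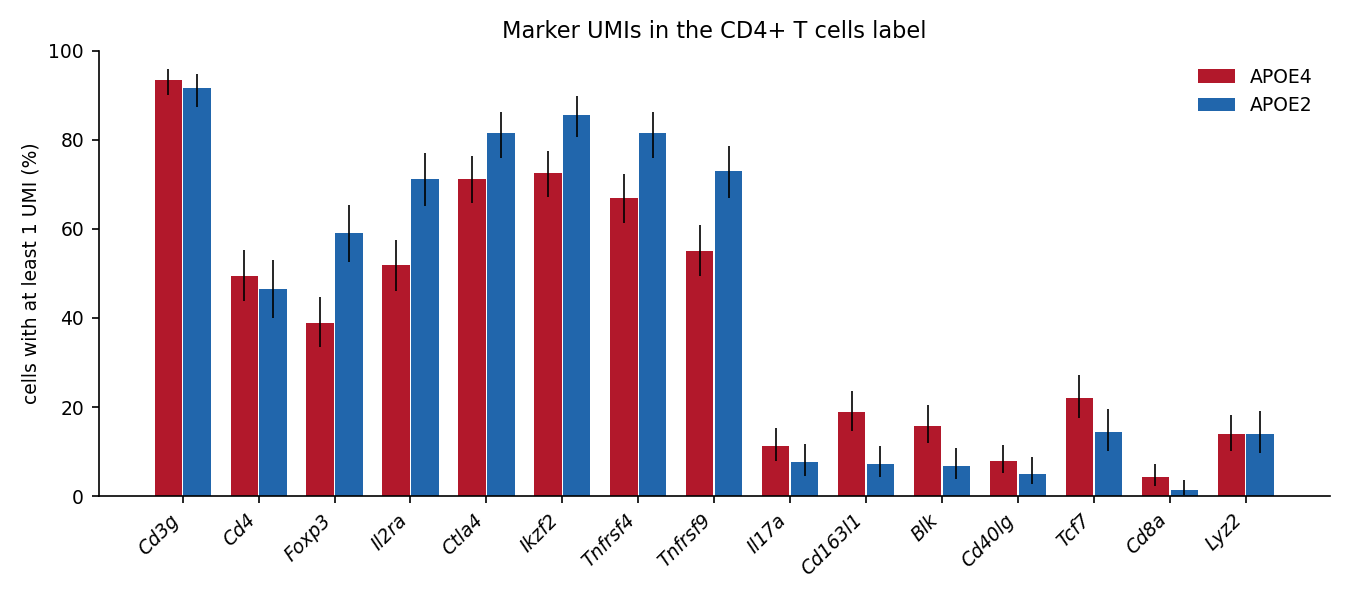
Share of the cells named CD4+ T cells that hold at least 1 UMI of each gene (y axis, percent), APOE4 in red and APOE2 in blue; lines are exact binomial intervals that cover counting error only. Foxp3 was found in 38.9% of APOE4 and 59.1% of APOE2 cells and Cd163l1 in 18.8% and 7.17%, while Cd4 stood at 49.5% and 46.4%.

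The name holds a mixture, since Foxp3 and Il17a UMIs split the members almost without overlap. In APOE4, 117 cells held Foxp3 only, 33 Il17a only, 1 both and 152 neither. In APOE2, 140 cells held Foxp3 only, 18 Il17a only, 0 both and 79 neither. Cells with neither UMI were thus 50.2% of APOE4 and 33.3% of APOE2 members, a ratio with an interval of 1.22 to 1.86. These cells are not shown to lack both genes. Their median depth was 3032 UMIs in APOE4 and 2991 in APOE2, against 3776 and 3648 in the cells with Foxp3 only.

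The cells with Il17a differed from the label's name. Cd4 had UMIs in 6.06% of them in APOE4 and 0% in APOE2, against 56.4% and 52.9% of the cells with Foxp3. Cd163l1 was in 87.9% of the Il17a cells in APOE4 and 77.8% in APOE2, Blk in 69.7% and 55.6%, and the interleukin 1 receptor gene Il1r1 in 63.6% and 66.7%. Every Il17a cell of both libraries held Il7r, the interleukin 7 receptor chain, and most held Cxcr6, a chemokine receptor of tissue T cells, at 87.9% in APOE4 and 94.4% in APOE2. Cd28, the costimulatory receptor, was in 6.06% of them in APOE4 and 5.56% in APOE2, against 86.3% and 78.6% of the Foxp3 cells.

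The rest of the T compartment bears on who the members are, because Cd4-positive cells were not placed under the same name in both libraries. Among cells named CD8+ T cells, 14 of 477 in APOE4 held a Cd4 UMI and no Cd8a or Cd8b1 UMI, against 49 of 113 in APOE2. Any Cd4 UMI was present in 3.35% of that label in APOE4 and 45.1% in APOE2. None of those 14 and 49 cells held Foxp3; Cd40lg was in 42.9% of them in APOE4 and 26.5% in APOE2, and Tbc1d4 in 35.7% and 46.9%. Conversely, 28 members in APOE4 and 8 in APOE2 held a Cd8a or Cd8b1 UMI. Under the name Diverse, cells with Cd4 and no Cd8 UMI were 41 of 270 in APOE4 and 82 of 211 in APOE2. Of these, 19 and 48 held Foxp3. Under Ki67+ CD8+ T cells they were 12 of 74 and 16 of 51, with Foxp3 in 7 and 16. Several results below that rest on cells without Foxp3 are also given with the 14 and 49 cells added. This widened set, an alternative chosen after seeing the data, leaves out the cells named Diverse and Ki67+ CD8+ T cells. The border of the label below means that with the CD8+ T cells label only.

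Adding these cells moved several contrasts. The members were 5.63% of named cells in APOE4 and 5.08% in APOE2, a ratio of 1.11 [0.939, 1.31], and the widened set was 5.89% and 6.13%, a ratio of 0.960 [0.822, 1.12]. Against other denominators the members were scarcer in APOE4, at 30.8% and 49.3% of the T cell names, a ratio of 0.625 [0.549, 0.712], and 16.9% and 31.0% of the lymphoid names. None of the added cells held Foxp3 or Il17a, so the choice of cells fixed the direction in which the next Foxp3, neither and Il17a ratios moved. Cells with Foxp3 under other names were not added. The share with Foxp3 became 37.2% in APOE4 and 49.0% in APOE2, a ratio of 0.760 [0.632, 0.916]. The share with neither UMI became 52.4% and 44.8%, a ratio of 1.17 [0.991, 1.38], so that its interval spans 1. The Cd163l1 ratio was 3.03 [1.80, 5.08] in the widened set and the Il17a ratio 1.70 [0.985, 2.95].

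Foxp3 cells also lay under other names, and not in equal parts. Of 196 named cells with a Foxp3 UMI in the APOE4 library, 118 were members, 60.2%, and 44 carried the name Diverse. In APOE2, 140 of 293 such cells were members, 47.8%, and 92 were named Diverse. For Il17a the members held 34 of 49 such cells in APOE4 and 18 of 31 in APOE2. The APOE2 library thus had more Foxp3 cells inside the name and more outside it.

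Clustering of the members on genes that were not at least 2-fold apart between libraries, centred within each library, gave 9 sub-clusters. The one led by Il17a, Cd163l1 and Blk is called IL-17-type and the others by their leading genes. The IL-17-type sub-cluster held 65 APOE4 cells, 21.5% [17.0, 26.5], and 26 APOE2 cells, 11.0% [7.29, 15.7], a ratio of 1.96 [1.28, 2.98] that was the same at Leiden resolutions of 0.5 and 1.5. A Cd4 UMI was in 0 of 65 and 0 of 26 of its cells, which allows shares of cells with a UMI of up to 4.62% and 11.5% and does not limit the share that expresses the gene, and all 65 in APOE4 and 25 in APOE2 held Cd3g. The same cells over the larger total of the widened set were 20.5% in APOE4 and 9.09% in APOE2, a ratio of 2.26 [1.47, 3.45].

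Of the other sub-clusters, the one led by Stmn1, C1qb and Ptpn5 held 29 APOE4 cells, 9.57%, and 54 APOE2 cells, 22.8%, a ratio of 0.420 [0.277, 0.638]. Its leading genes mark it weakly, with C1qb in 7.23% of its cells and 5.25% of the other members, and with C1qb and Ptpn5 at 0 CPM in its APOE4 cells. At resolution 0.5 no sub-cluster had these leading genes, and at 1.5 the one led by them had a ratio of 0.365 [0.198, 0.673]. The sub-cluster led by Ltf, Cd83 and Atf5 held 18.2% of APOE4 and 23.6% of APOE2 cells, a ratio of 0.768 [0.552, 1.07], but 7.26% and 19.0% at resolution 1.5, a ratio of 0.382 [0.236, 0.618]. That led by Ifitm1, Cd55 and Pde2a held 47 APOE4 and 38 APOE2 cells; Ifitm1 leads it through few cells, 3.53% of them and no larger a share than among the other members, and was at 455 CPM in its APOE4 and 7.33 CPM in its APOE2 cells. Unlike that of the IL-17-type sub-cluster, the borders within the Foxp3-rich cells thus moved with the resolution. The cells led by the interferon-induced genes Ifit3, Ifit3b and Ifit1 were 5.28% in APOE4 and 4.22% in APOE2, and those led by Il10, Lag3 and the unnamed transcript Gm17767 were 8.25% and 6.75%. A sub-cluster of 16 cells was led by the myeloid genes Il1b, S100a9 and Lyz2, with 3.30% of APOE4 and 2.53% of APOE2 cells.

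**Figure D2:**
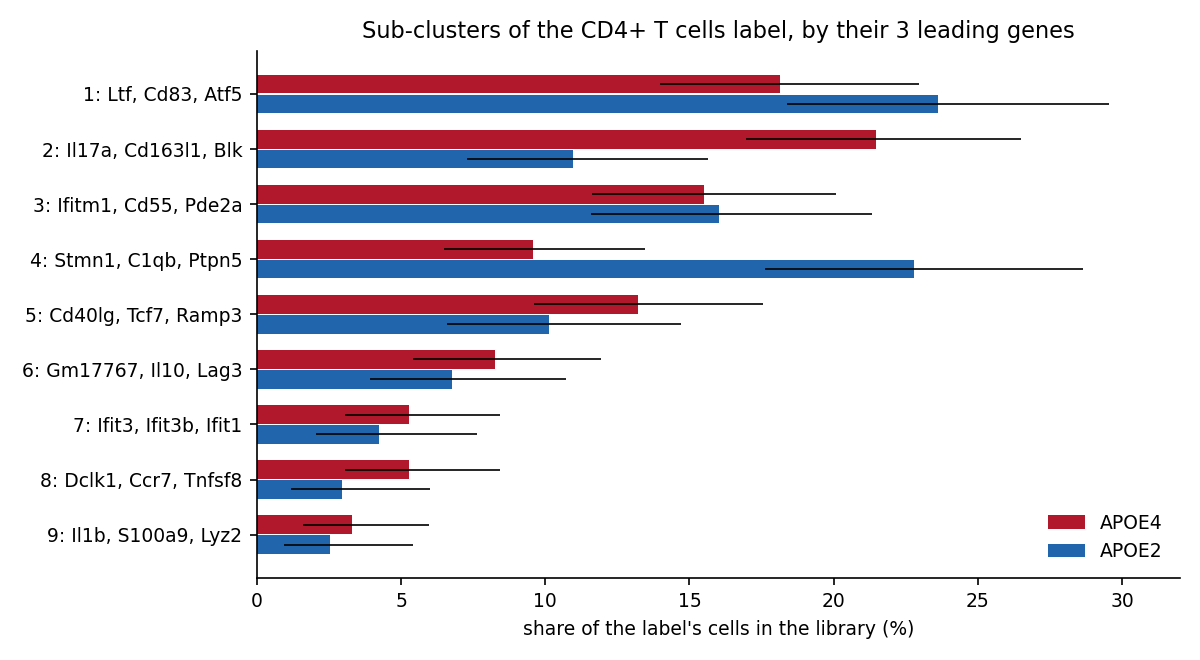
Share of the members of each library in each of 9 sub-clusters at resolution 1 (x axis, percent), named by number and leading genes, APOE4 in red and APOE2 in blue with exact binomial intervals. The Il17a, Cd163l1 and Blk sub-cluster stood at 21.5% in APOE4 and 11.0% in APOE2, and the Stmn1, C1qb and Ptpn5 sub-cluster at 9.57% and 22.8%.

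For values within like cells the sub-clusters were joined, after seeing the data, into 3 sets. The Foxp3-rich set joins the 6 sub-clusters in which more than 50% of cells held Foxp3. It includes the 16 cells led by Il1b, S100a9 and Lyz2, of which 62.5% held Foxp3. The IL-17-type set is the single sub-cluster above. The Cd40lg-type set joins the one led by Cd40lg, Tcf7 and Ramp3 and the one led by Dclk1, Ccr7 and Tnfsf8. Cells with neither a Foxp3 nor an Il17a UMI lay in all 3 sets. Over both libraries 43 of them were IL-17-type, 56 and 23 were in the 2 Cd40lg-type sub-clusters, and the rest were Foxp3-rich. The Foxp3-rich set held 182 APOE4 cells, 60.1% of members, and 180 APOE2 cells, 75.9%, a ratio of 0.791 [0.704, 0.889]. As a share of all named cells it was 3.38% in APOE4 and 3.86% in APOE2, a ratio of 0.876 [0.716, 1.07]. The IL-17-type set was 1.21% and 0.557% of named cells, a ratio of 2.17 [1.38, 3.41]. The Cd40lg-type set, where Cd4 was in 76.8% of APOE4 and 61.3% of APOE2 cells, held 56 and 31 cells, and this is the set that the label border with CD8+ T cells touches.

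Differences in RNA were measured on UMIs summed over the members of a library, as counts per 1000000 of the members' UMIs (CPM). Of 27998 genes, 6902 had at least 30 UMIs over both libraries; 163 of them, 2.36%, were at least 2-fold higher in APOE4 and 87, 1.26%, at least 2-fold lower, and the median log2 ratio over all of them was 0.01. These shares are the background for every gene list below; no test stands behind a call. A sum over a mixture does not tell shares of cells from levels per cell, so the values within the Foxp3-rich, IL-17-type and Cd40lg-type sets are given beside the sum. In those sets 2.59%, 5.58% and 3.81% of 5952, 1755 and 1652 genes were at least 2-fold higher in APOE4, and 1.76%, 1.08% and 1.82% at least 2-fold lower.

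Genes induced by type I interferon, the antiviral cytokines that signal through Ifnar1 and Ifnar2, were higher in APOE4 as a group. Of 56 listed genes 53 were measured, 2 had under 30 UMIs and Mx2 was not analysed here; 27 were at least 2-fold higher in APOE4 and 0 at least 2-fold lower, against a background of 2.36% and 1.26%, and all 53 had a log2 ratio above 0. The median was 1.01, with a range of 0.22 to 3.23. Isg15, a ubiquitin-like protein, had 688 CPM in APOE4 cells and 283 CPM in APOE2 cells, from 828 and 254 UMIs in 161 and 77 cells, a ratio of 2.43 [2.11, 2.81]. Ifit1, which binds viral RNA, had 352 CPM in APOE4 and 107 CPM in APOE2, a ratio of 3.30 [2.64, 4.16], and its relative Ifit3 251 and 108 CPM, a ratio of 2.32 [1.84, 2.95]. The intervals of these 3 genes lie well above 1.

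Further members had roles across the pathway. Irf7, the factor that amplifies interferon production, had 290 CPM in APOE4 and 129 CPM in APOE2, a log2 ratio of 1.17. Rsad2, or viperin, had 115 and 39.0 CPM (1.57), Oasl2 of the oligoadenylate synthetase family 68.1 and 18.9 CPM (1.85), and the nucleotide kinase Cmpk2 59.0 and 11.1 CPM (2.41). Zbp1, a sensor of Z-form nucleic acid, had 424 and 203 CPM (1.07). Stat2, a carrier of the interferon signal, had 110 CPM in APOE4 and 59.0 CPM in APOE2 (0.91). The receptor genes showed little: Ifnar1 had 193 and 203 CPM and Ifnar2 37.4 and 34.5 CPM.

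The promoters of Isg15, Ifit1 and Ifit3 are printed because these genes of the list carry the promoter element known for this response, which others of the list lack in this window. The sequences are from RefSeq, build GRCm38.p6, 250 bases before to 50 after the start, on the strand of the gene, at chr4:156200769-156201068 (minus) for Isg15, chr19:34640639-34640938 (plus) for Ifit1 and chr19:34583279-34583578 (plus) for Ifit3. Capitals mark each match to the core of the interferon-stimulated response element, which is GAAA, any 2 bases and GAAA or, on the other strand, TTTC, any 2 bases and TTTC; Isg15 has 3 matches that overlap and Ifit1 and Ifit3 have 2 each.
Isg15: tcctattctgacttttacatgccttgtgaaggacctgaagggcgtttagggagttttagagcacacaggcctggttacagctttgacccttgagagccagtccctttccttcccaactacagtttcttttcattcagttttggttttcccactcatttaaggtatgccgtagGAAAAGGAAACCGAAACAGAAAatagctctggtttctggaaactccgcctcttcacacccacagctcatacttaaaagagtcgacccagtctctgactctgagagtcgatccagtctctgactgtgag
Ifit1: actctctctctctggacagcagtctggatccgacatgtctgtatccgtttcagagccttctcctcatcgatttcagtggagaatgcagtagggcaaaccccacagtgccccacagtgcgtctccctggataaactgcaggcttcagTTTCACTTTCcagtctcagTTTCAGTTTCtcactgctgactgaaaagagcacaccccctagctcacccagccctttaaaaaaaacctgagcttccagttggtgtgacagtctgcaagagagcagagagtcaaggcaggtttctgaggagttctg
Ifit3: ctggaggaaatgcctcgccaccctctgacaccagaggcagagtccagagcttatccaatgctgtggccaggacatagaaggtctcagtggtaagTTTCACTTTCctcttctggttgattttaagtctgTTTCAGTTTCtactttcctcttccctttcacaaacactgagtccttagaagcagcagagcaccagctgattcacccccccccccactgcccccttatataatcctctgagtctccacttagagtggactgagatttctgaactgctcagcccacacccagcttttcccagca

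It was found in 1079 of 27025 promoters of that length, 3.99%. The motif was in 21 of the 44 type I list genes with a known promoter sequence, 47.7%, and in 11 of 18 genes of the interferon gamma list, 61.1%, 5 of 18 MHC class I genes (27.8%) and 3 of 12 cytotoxic genes. It was in 1 of 28 regulatory T cell effector genes, 3.57%, 1 of 23 glycolysis genes, 4.35%, and 0 of 22 of the interleukin 17 list. A match describes the letters only and is not a measured site.

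Within the sets, the type I genes had their highest median in the Foxp3-rich cells, where more of them were measured. The medians rest on unlike numbers of genes and do not order the sets. Their median log2 ratio there was 1.16, with 33 of 53 genes at least 2-fold higher in APOE4 against a background of 2.59%. In that set Ifit1 had 503 CPM in APOE4 and 127 CPM in APOE2, Isg15 926 and 313 CPM, and Rtp4, which dampens antiviral signalling, 294 and 89.2 CPM. In the IL-17-type set the median was 1.06, with 8 of 15 measured genes at least 2-fold higher against 5.58%, yet Isg15 itself was level at 169 CPM in APOE4 and 162 CPM in APOE2. In the Cd40lg-type set the median was 0.39, with 1 of 17 genes at least 2-fold higher against 3.81%. Summed over the list, the Foxp3-rich set had 23492 CPM in APOE4 and 11947 CPM in APOE2. The IL-17-type set had 6997 and 3393 CPM, and the Cd40lg-type set 12043 and 8255.5 CPM. The differences between the sets were not tested.

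Counted cell by cell, the difference was seen at each quartile. With each cell thinned to 1500 UMIs, the type I list gave a median of 22 UMIs per APOE4 cell, quartiles 12 and 36, and 11 UMIs per APOE2 cell, quartiles 6 and 19.3. In the Foxp3-rich set the medians were 30 UMIs in 176 APOE4 cells and 13 in 173 APOE2 cells, in the IL-17-type set 8 in 65 and 4 in 26, and in the Cd40lg-type set 15 in 51 and 8 in 29. The upper quartile of APOE2 members lay below the APOE4 median. In the widened set the median log2 ratio of the list was 1.02, with Isg15 at 2.51-fold [2.20, 2.86] and Rtp4 at 2.96-fold [2.32, 3.80], so the border of the label moved these values little.

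**Figure D3:**
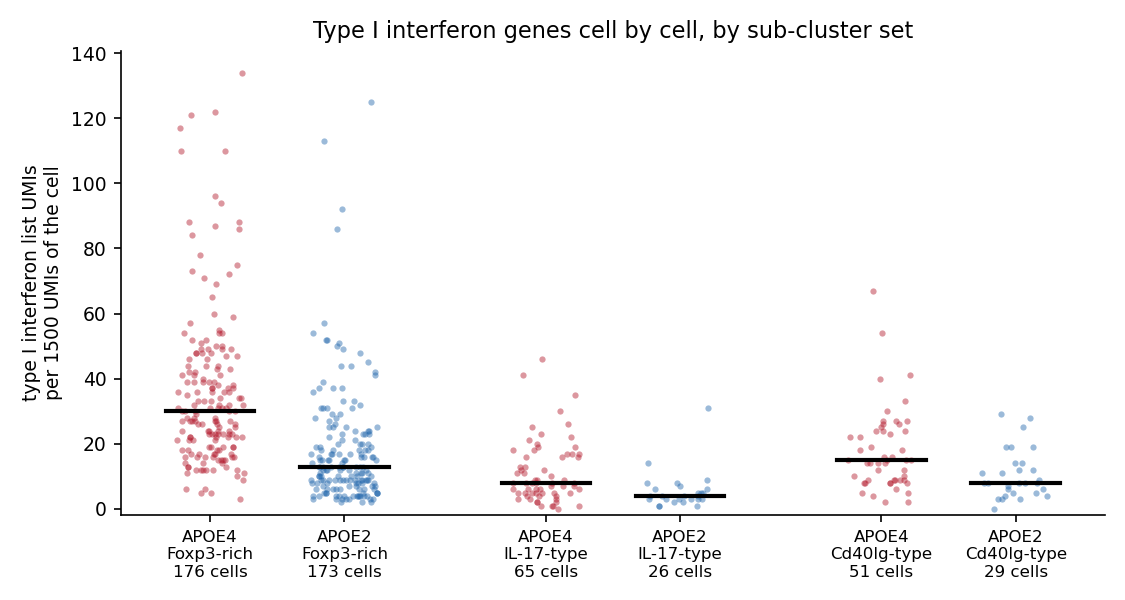
UMIs of the type I interferon list per cell after thinning each cell to 1500 UMIs (y axis), by sub-cluster set, APOE4 in red beside APOE2 in blue; each point is a cell and the bar is the median. Medians were 30 in APOE4 and 13 in APOE2 for the Foxp3-rich set, 8 and 4 for the IL-17-type set, and 15 and 8 for the Cd40lg-type set.

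Isg15 and Ifi27l2a are also abundant in other cells of both libraries, and free RNA reaches every droplet. Over all named cells Isg15 had 31857 UMIs in APOE4 and 9635 in APOE2, and Ifi27l2a 70372 and 39211. Barcodes without a cell type name were not counted here. The part of free RNA in the members' counts was not tested. In the IL-17-type set Ifi27l2a had 97 UMIs over 65 APOE4 cells and 1 UMI over 26 APOE2 cells. Without the cells that held 3 or more UMIs of the myeloid list, which were 20 in APOE4 and 14 in APOE2, the type I median was 0.90, and without the 10% of cells with the most UMIs it was 0.83.

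Interferon gamma acts through other receptors and induces Irf1 and the large GTPases, and its genes were closer together in the sum. Of 26 listed genes 19 were measured, with a median log2 ratio of 0.30, and 18 of the 19 were above 0. Of these genes 1 was at least 2-fold higher and 0 at least 2-fold lower, against a background of 2.36% and 1.26%. Among cells with neither a Foxp3 nor an Il17a UMI, which lie in all 3 sets, the median was 0.77 over 17 genes. Among the Foxp3 cells it was 0.41 over 18. The gene past 2-fold was Iigp1, an immunity-related GTPase, at 321 CPM in APOE4 and 144 CPM in APOE2, a ratio of 2.24 [1.83, 2.75]. Ifi47, of the same family, had 346 and 175 CPM, and Irf1 366 and 239 CPM. Smaller sets stood further apart: in the IL-17-type cells Irf1 had 311 CPM in APOE4 and 81.1 CPM in APOE2, from 68 and 7 UMIs, and Ifi47 275 and 69.5 CPM, from 60 and 6 UMIs. In the Cd40lg-type cells Irf1 had 244 and 104 CPM. Of the 5 list genes measured in each of these 2 sets, 4 were at least 2-fold higher in APOE4, against backgrounds of 5.58% and 3.81%.

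Genes that present antigen on MHC class I, an interferon-responsive pathway, were shifted a little: 15 of 20 were above 0, with a median of 0.23 and 0 past 2-fold. H2-T22 had 551 CPM in APOE4 and 371 CPM in APOE2, and Nlrc5, the activator of the class I genes, 135 and 89.0 CPM. For H2-K1 the values were 6588 CPM in APOE4 and 6277 CPM in APOE2. MHC class II genes, which T cells of mice scarcely make, had a median of 0.30 over 7 measured genes. Of these 1, H2-DMb1, was at least 2-fold higher, against a background of 2.36%. The median was -0.16 without the cells with 3 or more myeloid UMIs. H2-Aa UMIs were in 45 APOE4 and 34 APOE2 cells.

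Genes of regulatory T cell function were mostly lower in APOE4, where the share of Foxp3 cells was also smaller. Of 36 measured genes 11 had a log2 ratio above 0, and the median was -0.27. There were 0 at least 2-fold higher and 4 at least 2-fold lower, against a background of 2.36% and 1.26%. Foxp3 had 276 CPM in APOE4 and 430 CPM in APOE2, a ratio of 0.642 [0.553, 0.745], Ctla4, the inhibitory receptor, 1328 and 1855 CPM, and Tnfrsf9, or 4-1BB, 794 and 1166 CPM. Within the Foxp3-rich set the gaps were smaller, with Foxp3 at 413 CPM in APOE4 and 532 CPM in APOE2 (0.776 [0.668, 0.902]), Ctla4 at a ratio of 0.829 [0.771, 0.891] and Tnfrsf9 at 0.817 [0.746, 0.894]. The suppressive cytokine gene Il10 had 154 CPM in APOE4 and 149 CPM in APOE2 in that set. The list median there was -0.20 over 36 genes, with 1 at least 2-fold higher (Gzmb) and 2 at least 2-fold lower (Areg and Cd83). The background of the set was 2.59% higher and 1.76% lower.

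The 4 genes at least 2-fold lower were Areg, Il1rl1, Cd83 and Ebi3. Areg encodes amphiregulin, an EGF-family ligand of tissue-repair regulatory cells, and its level was highest in this label among those of at least 50 cells. It had 504 UMIs, 419 CPM, in 74 APOE4 cells and 789 UMIs, 878 CPM, in 103 APOE2 cells, a ratio of 0.477 [0.426, 0.534]. Il1rl1, the interleukin 33 receptor that marks the same kind of cell, had 57.3 CPM in 25 APOE4 cells and 139 CPM in 52 APOE2 cells, a ratio of 0.412 [0.303, 0.557]. Both differences were seen within the Foxp3-rich set, at 481 CPM in APOE4 and 998 CPM in APOE2 for Areg (0.482 [0.424, 0.546]) and 83.7 and 163 CPM for Il1rl1 (0.514 [0.374, 0.701]). Cells with Foxp3 UMIs held Areg in 38.5% of cases in APOE4 and 55.7% in APOE2, and Il1rl1 in 13.7% and 28.6%.

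Areg went the same way in the IL-17-type cells, at 211 CPM in 7 APOE4 cells and 579 CPM in 5 APOE2 cells, and stood at 395 and 320 CPM in the Cd40lg-type cells. The widened set gave Areg a ratio of 0.536 [0.479, 0.599]. Cd83, an activation marker, had 55.7 CPM in APOE4 and 135 CPM in APOE2, and Ebi3, a chain of interleukins 27 and 35, 38.2 and 80.1 CPM. Of further genes, picked after their values were seen, Gata3 was at 197 CPM in APOE4 and 310 CPM in APOE2, Klrg1 at 204 and 378 CPM, and the decoy receptor gene Il1r2 at 51.5 and 139 CPM, a ratio of 0.370 [0.269, 0.506].

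Some regulatory and effector genes went the other way. Gzmb, the granzyme that kills target cells and is also found in tumour regulatory T cells, had 2189 CPM in 161 APOE4 cells and 1166 CPM in 125 APOE2 cells, a ratio of 1.88 [1.75, 2.02]. In the Foxp3-rich set it had 3261 CPM in APOE4 and 1437 CPM in APOE2, a ratio of 2.27 [2.11, 2.44]; in the Cd40lg-type set it had 9 UMIs in APOE4 and 28 in APOE2. Maf, a factor for Il10 and interleukin 17 cells, had 886 and 702 CPM, and Irf4, a factor of effector regulatory cells, 69.8 and 43.4 CPM.

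The interleukin 17 programme was higher in the sum over all members and level within the IL-17-type set. Over 24 measured genes the median log2 ratio was 0.53. Of these 5 were at least 2-fold higher, among them Cd163l1, Blk, Kcnk1 and Tmem176b, and 0 at least 2-fold lower. The background was 2.36% higher and 1.26% lower. Cd163l1 had 299 CPM in APOE4 and 127 CPM in APOE2, and Blk 74.8 and 33.4 CPM. Within the IL-17-type set the median over 23 genes was 0.04, and Cxcr6 had 1281 CPM in APOE4 and 1239 CPM in APOE2. There 1 gene was at least 2-fold higher and 1 at least 2-fold lower, or 4.35% each. The background of that set was 5.58% higher and 1.08% lower. Giving each of the 3 sets the same weight in both libraries, its mean share of the members, gave the label a median of 0.09.

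The 2 genes past 2-fold inside that set were Kcnk1 and Il17a. Kcnk1, a potassium channel gene, had 47 UMIs in 33 APOE4 cells and 8 UMIs in 5 APOE2 cells, a ratio of 2.32 [1.09, 5.69]. Il17a had 231 UMIs in 30 of 65 APOE4 cells and 228 UMIs in 18 of 26 APOE2 cells, a ratio of 0.400 [0.332, 0.483]. A single APOE2 cell held 108 of those UMIs, while the highest APOE4 cell of the label held 30. Among cells with any Il17a UMI the median was 5 in each library.

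Cytotoxic genes were the group in which the border of the label mattered most. Of 11 measured genes 6 were at least 2-fold higher in APOE4 and 0 at least 2-fold lower, with a median of 1.30, and in the widened set 3 of 12 were, with a median of 0.32, against a background there of 2.03% higher and 1.32% lower. Nkg7, a granule protein, had 416 CPM in 87 APOE4 cells and 126 CPM in 35 APOE2 cells, a ratio of 3.31 [2.69, 4.10], and in the widened set 450 and 265 CPM, a ratio of 1.69 [1.47, 1.96]. The receptor Klrd1, or CD94, had a ratio of 3.68 [2.10, 6.91] among members and 1.06 [0.784, 1.45] in the widened set. The cathepsin gene Ctsw had 1.99 [1.08, 3.88] and 0.796 [0.515, 1.23], on either side of 1.

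Other genes of the list were apart on both sides of the border. Klrk1, or NKG2D, had a ratio of 3.69 [2.58, 5.41] among members and 3.52 [2.55, 4.93] in the widened set, and 42 of its 68 APOE4 cells and 15 of its 18 APOE2 cells were IL-17-type. Gzmb had 2.22 [2.07, 2.39] in the widened set. Gzma, granzyme A, had 101 UMIs in 10 APOE4 cells, of which 7 held Foxp3 and 10 held Cd3g, and 0 in APOE2; 4 cells held 89 of the 101 UMIs. Against a floor of 3 UMIs in the APOE2 members it was at least 25.1-fold higher in APOE4.

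The cytokines and chemokines of type 1 responses also moved unequally with the border. Of 14 measured cytokine genes 4 were at least 2-fold higher (Ifng, Ccl3, Ccl4 and Xcl1) and 1, Areg, at least 2-fold lower. The background was 2.36% higher and 1.26% lower. The list median was 0.30, and -0.16 without the cells with a Cd8a or Cd8b1 UMI. Ifng, the interferon gamma gene, had 81 UMIs in 23 APOE4 cells and 7 UMIs in 4 APOE2 cells, a ratio of 8.64 [4.01, 22.2]. With the Cd4-positive cells named CD8+ added it had 91 and 39 UMIs, a ratio of 2.07 [1.41, 3.10]. Ccl4, a chemokine for monocytes and T cells, had 210 CPM in 39 APOE4 cells and 44.5 CPM in 13 APOE2 cells, a ratio of 4.72 [3.37, 6.77], and its ratio in the widened set was 4.03 [3.01, 5.48]. Ccl3 had ratios of 3.10 [1.86, 5.42] and 3.34 [2.04, 5.69]. Xcl1, which draws cross-presenting dendritic cells, had 33 UMIs in 7 APOE4 cells and 0 in APOE2 members, and 33 and 6 UMIs in the widened set. Few cells held much of these counts. For each gene the 4 highest APOE4 members held 30 of 33 Xcl1, 39 of 81 Ifng and 107 of 253 Ccl4 UMIs. Over all named cells Ifng had 2090 UMIs in APOE4 and 338 in APOE2, Xcl1 4938 and 2843, and Ccl4 30445 and 21839.

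**Figure D4:**
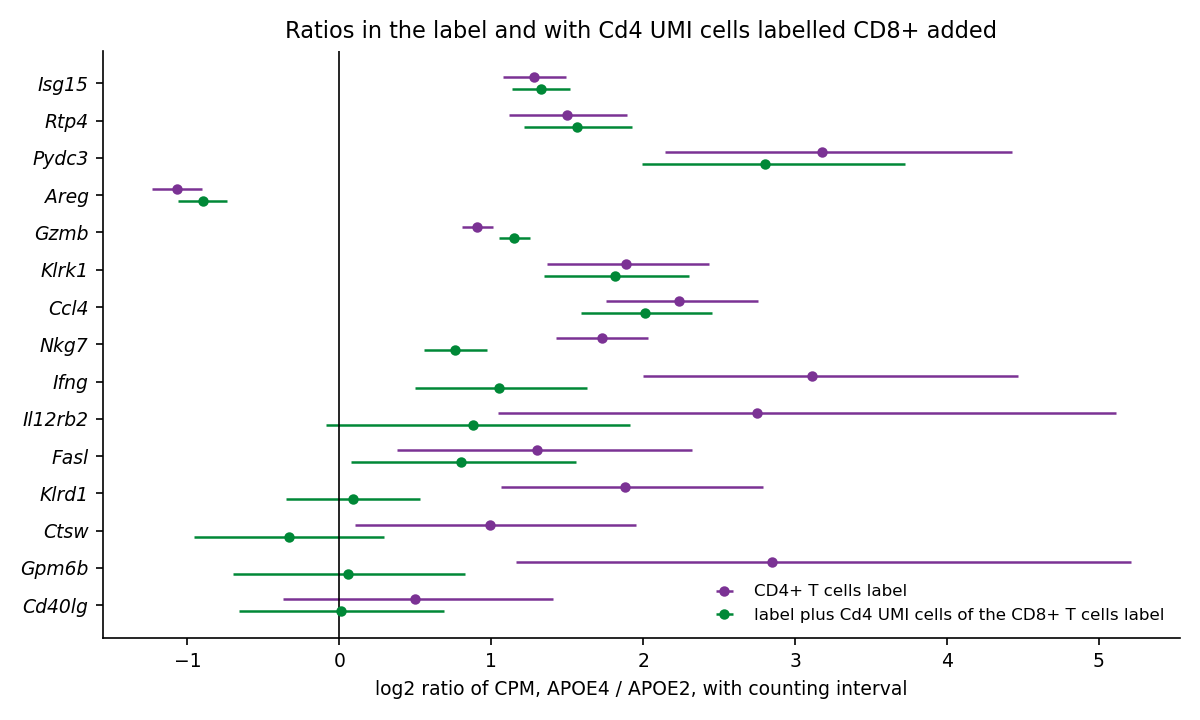
Log2 ratio of CPM, APOE4 over APOE2 (x axis), for 15 genes, in the members (purple) and with the 14 APOE4 and 49 APOE2 Cd4-positive cells named CD8+ T cells added (green); lines are exact counting intervals. Isg15, Rtp4, Areg, Gzmb, Klrk1 and Ccl4 stay near their place, while Nkg7 moves to 1.69-fold, Ifng to 2.07-fold and Klrd1, Gpm6b and Cd40lg to near 1-fold.

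Markers of other cells moved with these genes. The NK list of 8 genes, which shares Gzma, Klrc1 and Prf1 with the cytotoxic list, summed to 165 CPM in APOE4 and 8.90 CPM in APOE2, with at least 1 UMI in 13.2% and 2.95% of cells and 6 of its 8 genes at 0 in APOE2. Its defining genes were nearly absent: Ncr1 had UMIs in 1 APOE4 cell and 0 APOE2 cells, and Klrb1c in 3 and 0. The CD8 list of 4 genes summed to 95.5 and 13.4 CPM. Without the 28 APOE4 and 8 APOE2 cells with a Cd8a or Cd8b1 UMI, Ifng had 45 and 7 UMIs, a ratio of 5.39 [2.41, 14.2], Nkg7 a ratio of 2.71 [2.17, 3.42] and Klrk1 one of 3.67 [2.44, 5.71], and the cytotoxic median was 1.08. Cells named monocytes, which should lack these genes, held a Gzma UMI in 1.84% of APOE4 and 0.619% of APOE2 cells, a Nkg7 UMI in 2.80% and 1.24% and an Ifng UMI in 0.787% and 0.371%, at median depths of 6678 and 6524 UMIs.

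Receptors that restrain T cells went in both directions. Pdcd1, or PD-1, had 285 CPM in APOE4 and 184 CPM in APOE2, a ratio of 1.55 [1.28, 1.88], and Lag3, which binds MHC class II, 126 and 69.0 CPM, a ratio of 1.83 [1.35, 2.50]. In the Foxp3-rich set Pdcd1 had a ratio of 1.21 [0.936, 1.58] and Lag3 of 1.75 [1.28, 2.41]. Cd200r1, an inhibitory receptor for Cd200, was the 1 gene of 13 at least 2-fold lower, with 25.8 CPM in APOE4 and 62.3 CPM in APOE2; the list median was -0.04. Costimulatory and TNF-family genes had a median of 0.09 with 1 of 19 at least 2-fold higher, the Fas ligand gene Fasl, whose ratio of 2.47 [1.30, 5.00] was 1.74 [1.05, 2.94] in the widened set. For both lists the background was 2.36% higher and 1.26% lower.

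Receptors for cytokines and chemokines differed little as groups, and the background for their counts was 2.36% higher and 1.26% lower. The median was -0.07 over 26 cytokine receptor genes, with 1 at least 2-fold higher and 2 at least 2-fold lower (Il1r2 and Il1rl1), and 0.12 over 20 chemokine receptor and homing genes, with none past 2-fold. The 1 higher was Il12rb2, the interleukin 12 receptor chain of type 1 cells, with 27 UMIs in 22 APOE4 cells and 3 UMIs in 3 APOE2 cells; its ratio of 6.72 [2.07, 34.6] became 1.84 [0.941, 3.77] in the widened set. The integrin genes Itgb1 and Itga4, which together form VLA-4, were at 289 and 120 CPM in APOE4 and 157 and 69.0 CPM in APOE2. Genes of naive and memory cells had a median of 0.10 over 12, and Tcf7, their central factor, had UMIs in 22.1% of APOE4 and 14.3% of APOE2 cells. Tcf7 was found in 40 IL-17-type cells and in 29 and 10 cells of the 2 Cd40lg-type sub-clusters. Cells with Il17a held it in 33.3% of APOE4 and 55.6% of APOE2 cells. The shares were 6.84% and 2.86% with Foxp3, and 31.6% and 25.3% with neither UMI.

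Genes of glycolysis and the response to low oxygen were mostly lower in APOE4. Of 24 measured genes 23 had a log2 ratio below 0 and none was past 2-fold; the median was -0.45 and the range -0.97 to 0.20. Aldoa, an enzyme of the pathway, had 546 CPM in APOE4 and 868 CPM in APOE2, a ratio of 0.629 [0.566, 0.698], Tpi1 235 and 388 CPM, and Pkm, pyruvate kinase, 807 and 1128 CPM. Hilpda, a lipid droplet gene induced by low oxygen, had 210 and 367 CPM. Ldha, lactate dehydrogenase, was nearer, at 788 CPM in APOE4 and 893 CPM in APOE2.

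This difference was not alike in all sets. In the Foxp3-rich cells the median was -0.34 with 4 of 23 genes at least 2-fold lower, against a background of 1.76%, and Hilpda had 195 CPM in APOE4 and 398 CPM in APOE2. In the IL-17-type cells the median over 12 genes was -0.00, with Aldoa at 279 and 255 CPM. In the Cd40lg-type cells it was -0.23 over 12 genes. Whether the sets differ was not tested.

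Other programmes stayed close, and the background for their counts was 2.36% higher and 1.26% lower. The 30 ribosomal protein genes had a median of -0.02, the 32 of oxidative phosphorylation -0.01, the 12 of cholesterol synthesis -0.00, where only Mvd was at least 2-fold lower at 11 and 19 UMIs, and the 6 of proliferation -0.04. Heat shock genes had a median of 0.32, with 11 of 12 above 0; Hsph1, a chaperone of the HSP110 family, had 76.4 CPM in APOE4 and 32.3 CPM in APOE2, a ratio of 2.37 [1.55, 3.73]. Early genes of T cell receptor signalling had a median of -0.16 over 25, and the 1 past 2-fold was Nfkbid, a nuclear inhibitor of NF-kappaB, at 108 CPM in APOE4 and 248 CPM in APOE2, a ratio of 0.435 [0.348, 0.543]. It was lower in the Foxp3-rich set (0.380 [0.286, 0.501]) and in the IL-17-type set (0.367 [0.207, 0.649]).

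**Figure D5:**
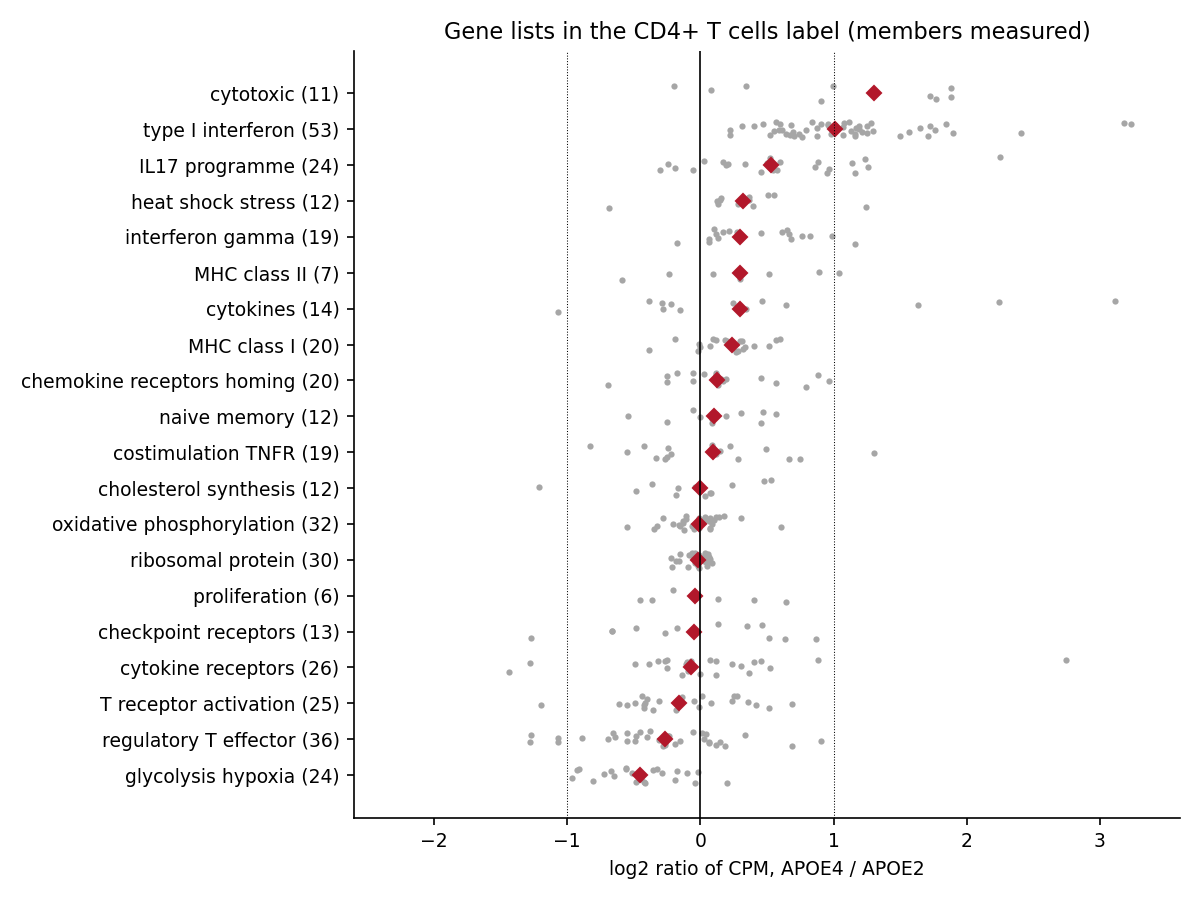
Log2 ratio of CPM, APOE4 over APOE2 (x axis), of the measured members of 20 gene lists (grey points) with the median of each list (red diamond); the number of measured members follows each name, dotted lines mark 2-fold, and Gzma and Xcl1, at 0 in APOE2, are not drawn. The type I interferon list has all 53 points above 0 and a median of 1.01, and the glycolysis list has 23 of 24 points below 0 and a median of -0.45.

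Single genes were ranked by the interval bound nearest to 1, and 12 were named in each direction. Leading the higher ones was Pydc3 of the interferon-induced PYHIN cluster (chromosome 1), with 97 UMIs in 62 APOE4 cells and 8 UMIs in 6 APOE2 cells, a ratio of 9.05 [4.42, 21.6]; BC094916, of the same cluster, had 105 and 20 UMIs, a ratio of 3.92 [2.41, 6.68]. Near-identical relatives of both lie in that cluster, so the counting may have split their UMIs, and the same holds for Ifi27l2a, Ms4a4b, Ly6c2 and Ifit3. Over all named cells Pydc3 had 1674 UMIs in APOE4 and 83 in APOE2, and BC094916 1355 and 320. Neither difference was thus limited to the members. Rtp4 (2.82 [2.17, 3.71]), Dhx58 (3.39 [1.84, 6.73]), Ifi27l2a (1.97 [1.88, 2.07]), Ms4a4b (2.01 [1.82, 2.23]) and Iigp1 are interferon-induced genes as well, and Ms4a4b had a ratio of 1.46 [1.34, 1.58] in the widened set.

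The remaining higher genes were Kcnk1, Cd163l1, Il12rb2, Gpm6b and Cep57l1. Gpm6b, a membrane glycoprotein gene, had 29 UMIs in APOE4 and 3 in APOE2, but 34 and 29 UMIs in the widened set, a ratio of 1.04 [0.616, 1.77]. Cep57l1, named for its likeness to a centrosome protein, had 47 UMIs in 35 APOE4 cells and 9 UMIs in 9 APOE2 cells, a ratio of 3.90 [1.89, 9.05].

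Among the lower genes 2 transcripts were absent from APOE4 members. Gm26740 (chromosome 10) had 0 UMIs in APOE4 and 295 UMIs in 156 APOE2 cells, and 0 and 2776 UMIs over all named cells. With 3 UMIs set as the floor it was at least 132-fold lower among members. Gm20186 (chromosome 6) had 0 and 114 UMIs, at least 50.9-fold lower, and 20 and 902 UMIs over all named cells. Ednrb, the endothelin B receptor, had 12 and 57 UMIs among members and 110 and 717 UMIs over all named cells. These contrasts were thus seen over the named cells of the libraries and not in the members alone.

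The other lower genes were Ccdc184, Pcsk1, Penk, Rrad, Cd81, Areg, Dst, Nfkbid and H2afz. Ccdc184 had 1 UMI in APOE4 and 38 UMIs in 23 APOE2 cells. Pcsk1, a convertase of prohormones, had 5 UMIs in 4 APOE4 cells and 34 UMIs in 15 APOE2 cells, a ratio of 0.110 [0.0335, 0.282], and Penk, the enkephalin precursor it can cut, had 74 UMIs in 16 and 181 UMIs in 30 cells, a ratio of 0.305 [0.230, 0.402]. In the APOE2 members 13 of the 15 Pcsk1 cells held Foxp3, as did all 4 in APOE4. Cd81, a tetraspanin, had 102 CPM in APOE4 and 249 CPM in APOE2, and H2afz, a histone variant of dividing and active cells, 811 and 1507 CPM, a ratio of 0.538 [0.495, 0.585]. In the IL-17-type set H2afz was level at 654 and 637 CPM.

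Apoe, the gene whose human alleles define the groups, was counted as the mouse gene and checks no label. It had 38 UMIs in 31 APOE4 cells and 28 UMIs in 24 APOE2 cells of the label. Over all named cells it had 3157 and 6147 UMIs.

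The same lists in other names show which differences the members shared. The type I median was 1.08 in cells named NKT, 0.46 in CD8+ T cells, 0.60 in NK cluster 2 and 1.65 in Monocytes 1, against 1.01 in the members. For the interferon gamma list it was 0.85, 0.33, 0.41 and 1.54, against 0.30. The glycolysis median was -0.28, -0.44, -0.32 and -0.22, against -0.45, all below 0. The cytotoxic median was 0.13 in NKT cells, 0.88 in CD8+ T cells, 0.06 in NK cluster 2 and -0.07 in Monocytes 1, against 1.30, and the CD8+ label is the one whose Cd4-positive part differed between the libraries. No test of a difference between names can be had with 1 library per genotype.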

How the data were processed

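Leukocytes of 2 pooled libraries, 1 per genotype, were sequenced with 10x 3′ v3 chemistry. The authors' deposited matrices hold UMI counts per gene and cell on mm10, made with Cell Ranger 3.0.1 per the file headers. The deposited cell table holds the cell type names and mitochondrial percent; its embedding scores, also deposited, gave no value here. The submitters' processing notes also name Seurat 3.0.2. How doublets were handled is not given in the sources used here. The members and gene lists were chosen with earlier results of these data known.

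Matrix totals were used for depth, as they passed the table's by up to 241 UMIs in a cell. UMIs were summed per library and divided by the members' total. Ratios carry exact conditional binomial intervals, shares Clopper-Pearson intervals, and ratios of shares log-scale intervals. A gene was measured with at least 30 UMIs over both libraries, and a library at 0 was set to a floor of 3. Named genes were the 12 per direction with the interval bound farthest from 1, among genes at 10% or more of the highest label of at least 50 cells. Members were clustered with scikit-learn, igraph and leidenalg 0.10.2 (1000 variable genes, 15 components, 15 neighbours, resolution 1). The intervals of ratios and of ratios of shares were tested on simulated counts with counting error only, without variation between cells. The clustering, list medians and thinning were not tested on simulated data. edgeR 4.0.16 gave TMM factors for an alternative only. Promoters are from RefSeq and gene positions from GENCODE M21. Alternatives changed scaling, count minimum, fold, thinning, cell filters, weights of the mixture and the border of the label. Values of some list members are not reported here.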

Additional observations from a re-analysis of the deposited data

How the results depend on the processing

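No paired analysis was possible because each genotype has 1 library and the labels give no replicate numbers; for the same reason no replicate could be left out. Of 280 recomputed list medians 272 lay within the 95% order-statistic interval of the list and 8 outside it. Of 256 recomputed log2 ratios of named genes 27 left their counting interval, of 32 counts of genes past the fold 10 moved by over 1.5 times, and of 35 shares 3 left their interval. Over 15 settings 10 lists kept the sign of their median and 10 had medians of both signs, among them MHC class II (-0.37 to 0.40), cytokines (-0.19 to 0.34), checkpoint receptors (-0.13 to 0.13), cholesterol synthesis (-0.14 to 0.29) and proliferation (-0.50 to 0.14). The type I interferon median ran from 0.83 to 1.14, the regulatory effector median from -0.32 to -0.15, the glycolysis median from -0.51 to -0.30 and the cytotoxic median from 0.32 to 1.52. Genes at least 2-fold higher in APOE4 numbered 450 with a minimum of 10 UMIs, 77 with 60 and 767 with none, and 557 at 1.5-fold and 34 at 3-fold; lower genes numbered 340, 31, 833, 430 and 10. The interleukin 17 median was 0.093 with each of the 3 sets given the same weight in both libraries. The chemokine receptor median was 0.27 with thinned cells and 0.23 under 5% mitochondrial UMIs, the cholesterol median 0.29 without the 10% of cells with most UMIs, and the proliferation median -0.50 with thinned cells. The ribosomal median was -0.078 in the widened set. With the same weights in both libraries it was -0.098 for the mixture groups and -0.088 for the 3 sets. The ratio of the members' share was 0.625 of T cell names and 0.546 of lymphoid names, and that of cells with neither UMI 1.17 in the widened set. The cause was not tested where the construction of the alternative does not give it. The sets of sub-clusters, the widened set and the filters on Cd8 UMIs and on the myeloid sub-cluster were chosen after seeing the data. Depth limits the IL-17-type and Cd40lg-type sets most, where 1755 and 1652 genes reached 30 UMIs, against 6902 over all members.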

Other observations

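Beside the gene lists, cells with a Foxp3 UMI and cells with neither a Foxp3 nor an Il17a UMI were set side by side over both libraries, as a description without a test. The cells with neither came from all 3 sets of sub-clusters and are not shown to lack either gene. Tnfsf8, or CD30 ligand, had 10 UMIs in the Foxp3 cells and 140 in the cells with neither, a ratio of 0.048 per UMI captured, and Tbc1d4, a regulator of glucose transport, 8 and 107 UMIs, a ratio of 0.051. Calcrl, a receptor for calcitonin gene-related peptide and adrenomedullin, had 31 and 3 UMIs, a ratio of 7.01. The cells with Il17a stood apart from those with neither by Il1r1, at 53 and 23 UMIs, a ratio of 9.70, and by Bcl2a1a, a survival gene with near-identical copies among which UMIs may be split, at 36 and 14 UMIs, a ratio of 10.8.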
